A study of Mus musculus with 8 samples.

Results

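The Gimap genes encode GTPases of the immunity-associated protein family, and their transcripts were followed here in 2 mouse T cell leukemia lines. Members were chosen by name. A probe set was taken when the platform annotation gave it a single symbol that was Gimap1, Gimap3, Gimap4, Gimap5, Gimap6, Gimap7, Gimap8 or Gimap9. This gave 11 probe sets for 8 genes, of 45037 probe sets on the array and 18193 genes with a single symbol. Gimap4, Gimap6 and Gimap7 each had 2 probe sets and the other genes had 1. No Gimap probe set carried more than 1 symbol.

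GIMAP proteins are small GTP-binding proteins, several of which sit on intracellular membranes. They are known mainly from lymphocytes, where loss of single members shortens the life of T cells. GIMAP5 is the best studied of them: mice and rats that lack it become lymphopenic. GIMAP1 is needed for mature T and B lymphocytes, GIMAP3 and GIMAP5 are related proteins linked to survival during T cell development, and GIMAP4 has been linked to the execution of apoptosis. GIMAP proteins have been described as partners of members of the Bcl2 family, which set the threshold for mitochondrial cell death.

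The study asked what removal of LEF1, a DNA-binding partner of beta-catenin in the Wnt pathway, does to established T cell leukemias that lack E2A, an E protein transcription factor. Both lines came from mice backcrossed to FVB/NJ, and both lacked E2a. The line called E2a-/- had unmodified Lef1, and the line called Lef1F/F carried floxed Lef1 alleles besides. Each was infected with the retrovirus MigR1, which encodes GFP alone, or with MigR1-Cre, and GFP+ cells were sorted 72 h after infection. Cre removes the exons that encode the DNA-binding domain of LEF1 in the floxed line. It has no floxed Lef1 to act on in the E2a-/- line, which served as the control for Cre itself. Each of the 4 groups (E2a-/- MigR1, E2a-/- MigR1-Cre, Lef1F/F MigR1 and Lef1F/F MigR1-Cre) had 2 arrays. There was 1 line per genotype, so that a difference between the lines and a difference between the genotypes cannot be told apart. The labels do not say whether the arrays of a group came from separate infections, and the p-values measure no more than the spread between these arrays, which may be technical. Fewer cells with a transcript and less transcript per cell cannot be told apart in these sorted populations.

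Values are linear intensities after RMA, a method that corrects background, equalises the distributions of the arrays and combines the probes of each set into a single value. They lay between 35.2 and 25588 units, with array medians between 88.9 and 91 units. Arrays have no read depth, and precision is limited by how many there were. Lef1 itself followed the titles in the floxed line. At probe set 1454734_at it measured 6918 and 6126 units in the Lef1F/F MigR1 arrays against 1903 and 1677.8 units in the Lef1F/F MigR1-Cre arrays, a 3.64-fold fall (log2 difference -1.87 ± 0.09, adjusted p = 0.000703 by limma). The second Lef1 probe set, 1421299_a_at, fell 5.8-fold (-2.54 ± 0.11, adjusted p = 0.000584). In the E2a-/- line the log2 differences with Cre were -0.05 ± 0.09 and -0.14 ± 0.11. Lef1 is unmodified there and cannot check the vector. A further label field disagrees with the titles on the vector, so the Cre results of that line rest on the titles without such a check. Of 11 measured T lineage markers, 9 had means of at least 788.8 units in every group, while Cd2 had 110.2 to 255.9 units and Cd5 68.8 to 82 units, the latter below the array medians. Their summed intensity ran from 32142 to 32922 in the E2a-/- arrays and from 33526 to 41679 in the Lef1F/F arrays. The 7 measured B cell markers had group means between 57.4 and 110.7 units and a sum between 535 and 567 units. Probe sets differ in brightness, so these ranges describe each list and do not rank them.

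All 8 Gimap genes lie together on chromosome 6, in the order Gimap8, Gimap9, Gimap4, Gimap6, Gimap7, Gimap1, Gimap5 and Gimap3, and all 8 gene identifiers matched RefSeq. Promoter sequences from RefSeq (assembly GRCm38.p6, 250 bases before to 50 bases after a start site) are shown for the 3 genes with the largest differences in the comparisons below. They are written 5′ to 3′ on the strand of the gene, all on the plus strand, and capitals mark matches to the searched motifs. These were CTTTGA, a core recognised by TCF and LEF proteins, and CAGGTG, an E box of the kind bound by E proteins, each read on both strands (TCAAAG and CACCTG). The motifs do not overlap each other. The regions are chr6:48675885-48676184 for Gimap9, chr6:48738797-48739096 for Gimap1 and chr6:48684328-48684627 for Gimap4.

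Gimap9: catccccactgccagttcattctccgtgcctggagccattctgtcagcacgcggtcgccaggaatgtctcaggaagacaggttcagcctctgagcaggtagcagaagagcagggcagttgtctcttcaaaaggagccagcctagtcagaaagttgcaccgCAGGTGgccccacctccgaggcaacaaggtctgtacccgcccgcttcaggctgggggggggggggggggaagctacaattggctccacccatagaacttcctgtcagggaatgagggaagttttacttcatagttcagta

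Gimap1: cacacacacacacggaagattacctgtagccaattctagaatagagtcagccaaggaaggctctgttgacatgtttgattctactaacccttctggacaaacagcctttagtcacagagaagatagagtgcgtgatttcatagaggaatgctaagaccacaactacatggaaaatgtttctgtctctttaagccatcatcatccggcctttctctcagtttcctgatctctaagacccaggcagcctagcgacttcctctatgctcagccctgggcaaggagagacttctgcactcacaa

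Gimap4: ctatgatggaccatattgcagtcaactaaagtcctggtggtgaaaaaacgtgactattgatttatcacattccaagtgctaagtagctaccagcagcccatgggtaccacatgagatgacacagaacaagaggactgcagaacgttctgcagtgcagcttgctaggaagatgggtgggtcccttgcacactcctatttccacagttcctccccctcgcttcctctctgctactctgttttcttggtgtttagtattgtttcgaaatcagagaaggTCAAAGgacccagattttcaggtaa

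The Gimap9 promoter held 1 E box, beginning at position -90 from the start site, and no TCF/LEF core. In Gimap4 the TCF/LEF core was found once, on the other strand at position 26 after the start, with no E box. Gimap1 had neither. Over the 9 promoters of the family (Gimap8 has 2 start sites in the table), the TCF/LEF core occurred in 2, those of Gimap4 and Gimap7, and the E box in 1. Of all 32851 promoters of the same length, 16.0% held the TCF/LEF core and 20.2% the E box. A match is a run of letters and not a measured binding site, and the absence of one says only that these letters are not in this window.

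Gimap9 had the clearest pattern of the family, and it separated the lines. Its probe set 1437756_at measured 154.3 and 144.2 units in the E2a-/- MigR1 arrays and 150.9 and 149.7 units in the E2a-/- MigR1-Cre arrays. In the Lef1F/F line it measured 365 and 351.1 units with MigR1 and 281.7 and 296.1 units with MigR1-Cre. All 4 Lef1F/F arrays lay above all 4 E2a-/- arrays. The group means were 149.2 ± 7.16 (SD, n = 2), 150.3 ± 0.813, 358.1 ± 9.85 and 288.9 ± 10.2 units in the same order, so that both E2a-/- groups overlapped and the Lef1F/F MigR1-Cre group stood between them and the Lef1F/F MigR1 group. It was the only Gimap probe set above the array median in 8 of 8 arrays.

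Gimap1, whose product is needed by mature T and B cells, also differed between the lines and was similar within them. Probe set 1449988_at measured 78.7 and 73.2 units in the E2a-/- MigR1 arrays and 67.3 and 75.5 units in the E2a-/- MigR1-Cre arrays. The Lef1F/F arrays measured 108.1 and 109.2 units with MigR1 and 103.9 and 108.2 units with MigR1-Cre. No E2a-/- array reached the lowest Lef1F/F array, and the MigR1 and MigR1-Cre arrays overlapped within each line.

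Gimap4, the member linked to apoptosis, was read by probe sets 1424375_s_at and 1424374_at, which the annotation ties to the same transcript record. The first measured 64.2 and 61.2 units in the E2a-/- MigR1 arrays, 57.3 and 57.9 in E2a-/- MigR1-Cre, 84.7 and 81.5 in Lef1F/F MigR1 and 61.8 and 66.8 in Lef1F/F MigR1-Cre. The Lef1F/F MigR1 arrays lay above all others, the E2a-/- MigR1-Cre arrays lay below all others, and the remaining groups overlapped. The second measured 71.2 and 70 units, 64.5 and 67.9, 84.2 and 79.1, and 68.1 and 71.5 units in the same order of groups, again highest in Lef1F/F MigR1. The suffix _s_at marks probes that can match more than 1 transcript, so the assignment of the first to Gimap4 alone is uncertain.

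Gimap8, the family member with several GTPase domains in 1 chain, varied over a narrow range. Its probe set 1456061_at measured 51.2 and 50.2 units in E2a-/- MigR1, 55.2 and 54.5 in E2a-/- MigR1-Cre, 59.5 and 62.2 in Lef1F/F MigR1 and 57.5 and 58 in Lef1F/F MigR1-Cre. The Lef1F/F arrays lay above the E2a-/- arrays, by little more than 2 units between the nearest arrays.

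In the other 4 genes the arrays of the lines overlapped. Gimap5, the member whose loss causes lymphopenia, lay between 62.1 and 70.2 units over the 8 arrays, and its relative Gimap3 between 86.7 and 102.2 units. RefSeq lists Gimap5 among the other names of Gimap3, and the probe sets were therefore told apart by gene identifier. Gimap6 lay between 71.7 and 85.3 units at 1427891_at and between 45.5 and 53.2 units at 1456762_at. Gimap7 lay between 68.2 and 83.5 units at 1444283_at and between 56 and 67.6 units at 1425084_at. Apart from Gimap9, the 10 Gimap probe sets stayed between 45.5 and 109.2 units in every array, in the dim part of the range, where RMA compresses differences. Levels of different Gimap probe sets were not set against each other, since probes differ in brightness.

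**Figure D1:**
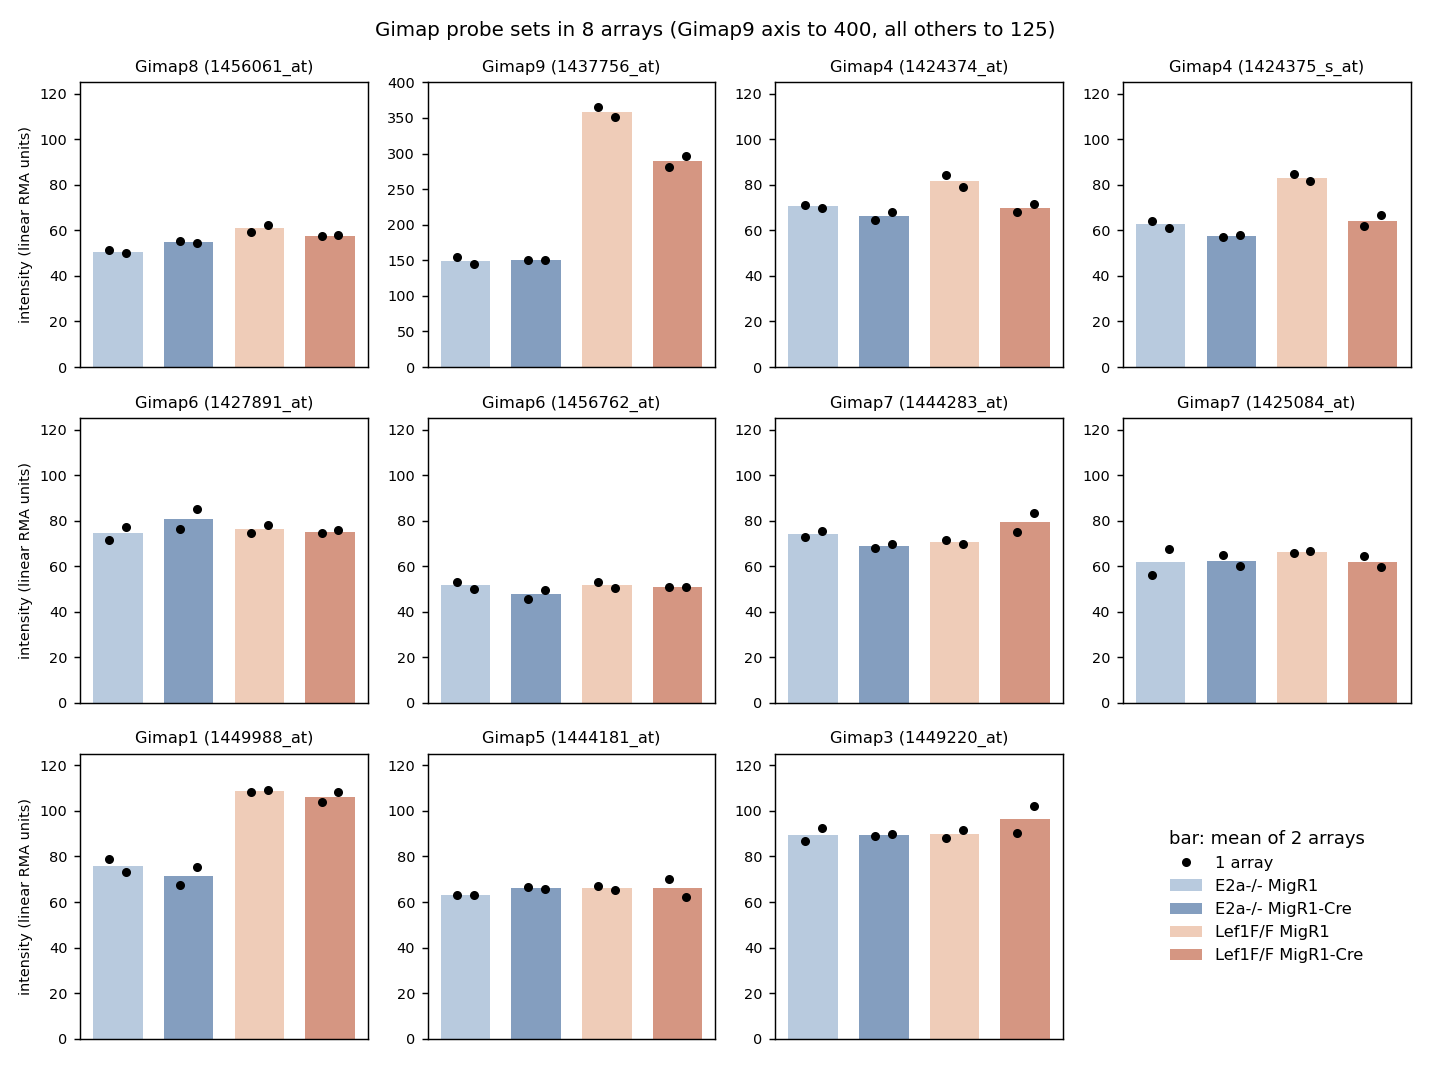
Intensity in linear RMA units (vertical axis, from 0) of the 11 Gimap probe sets, 1 panel each, in chromosomal order. Points are single arrays and bars are means of 2 arrays for the 4 groups, and the Gimap9 axis has a wider range than the others. Gimap9 stood at 281.7 to 365 units in the Lef1F/F arrays and 144.2 to 154.3 units in the E2a-/- arrays.

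The first comparison asked whether Cre in the floxed line, which removes functional LEF1, changed Gimap transcripts. None of the 11 probe sets passed the threshold (limma, Benjamini-Hochberg adjusted p below 0.05 over 45037 probe sets), where 0.167% of all probe sets, 75 in number, did. At an unadjusted p below 0.05 there were 4, with 3 lower and 1 higher, where 4.66% of all probe sets reached that level. The log2 differences ran from -0.37 to 0.17 with a median of -0.04, beside a median of 0.002 over all probe sets. Values were below 0 for 9 probe sets and above 0 for 2.

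Gimap4 and Gimap9 had the largest differences with Cre in the floxed line. At the Gimap4 probe set 1424375_s_at the log2 difference was -0.37 ± 0.06 (SE), with a 95% interval from -0.52 to -0.22, a ratio of 1.29-fold (unadjusted p = 0.000432 and adjusted p = 0.149 by limma). Its other probe set, 1424374_at, gave -0.23 ± 0.06 (adjusted p = 0.622). For Gimap9 the log2 difference was -0.31 ± 0.06, with an interval from -0.46 to -0.16 and a ratio of 1.24-fold (adjusted p = 0.242). In all of these, both MigR1-Cre arrays lay below both MigR1 arrays. Over the family, 5 probe sets had this separation downwards (13.7% of all probe sets did) and 1 upwards (15.4%). The Lef1F/F arrays resembled each other across the groups: array 1 of MigR1 and array 1 of MigR1-Cre correlated over all probe sets at r = 0.9975, as did array 2 of each, while the 2 MigR1 arrays correlated at 0.9945. When these pairs were entered as a block, an alternative chosen after seeing the data, Gimap4 1424375_s_at passed (adjusted p = 0.0236, where 0.571% of all probe sets were called lower) and Gimap9 did not (adjusted p = 0.0582). The labels do not pair these arrays.

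For the remaining genes the interval of the Cre difference bounds the change of intensity that these arrays could have missed. At such dim probe sets it need not bound the change of transcript. Gimap1 gave -0.04 ± 0.07 and Gimap8 -0.08 ± 0.06. Gimap3, Gimap5, Gimap6 and Gimap7, with 6 probe sets together, gave log2 differences between -0.1 and 0.17, and their 95% intervals reached from -0.32 to 0.32. The probe sets of Gimap7 disagreed in sign: 1444283_at gave 0.17 ± 0.07 and 1425084_at gave -0.1 ± 0.1, with adjusted p = 1 for both.

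In the E2a-/- line, where Cre has no floxed Lef1 to remove, no Gimap probe set passed the threshold, and none of all 45037 did (0%). No Gimap probe set had an unadjusted p below 0.05, where 1.86% of all probe sets did. Differences ran from -0.12 to 0.12. Gimap9 gave 0.01 ± 0.06 and Gimap4 1424375_s_at gave -0.12 ± 0.06 (adjusted p = 1 for both). Both MigR1-Cre arrays lay below both MigR1 arrays at 4 Gimap probe sets (15.2% of all probe sets had this separation), among them both of Gimap4, and above them at 2 (16.2%). The difference between the Cre effects of the lines was tested directly. It passed for none of the 11 probe sets (9 of all probe sets passed, 0.02%), and 4 had an unadjusted p below 0.05 (3.23% of all probe sets). Gimap9 had -0.32 ± 0.09 (unadjusted p = 0.00702 by limma), Gimap7 1444283_at 0.27 ± 0.1, Gimap4 1424375_s_at -0.25 ± 0.09 and Gimap8 -0.19 ± 0.08, with adjusted p = 1 for each. A Cre effect of different size in the lines was therefore not called for any Gimap gene with 2 arrays per group, which does not show that the effects were equal.

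The second comparison set the lines against each other before any deletion of Lef1. In MigR1 arrays, 4 of 11 Gimap probe sets were higher in the Lef1F/F line, those of Gimap9, Gimap1, Gimap4 and Gimap8, and none was lower. Over all probe sets 6.06% were called higher and 4.67% lower. Gimap9 was 2.4-fold higher (log2 difference 1.26 ± 0.06, adjusted p = 9.07e-06 by limma). Gimap1 was 1.43-fold higher (0.52 ± 0.07, adjusted p = 0.00306) and Gimap4 1424375_s_at was 1.33-fold higher (0.41 ± 0.06, adjusted p = 0.00519). Gimap8 was 1.2-fold higher (0.26 ± 0.06, adjusted p = 0.0219). The second Gimap4 probe set had a difference of 0.21 ± 0.06 that missed the threshold (adjusted p = 0.0826). With the pairs of floxed-line arrays as a block it passed, in MigR1 arrays (adjusted p = 0.0385) and over all arrays (adjusted p = 0.0335). Without E2a-/- MigR1 replicate 2, only Gimap9 and Gimap1 passed, with adjusted p = 0.0575 for Gimap4 1424375_s_at and 0.142 for Gimap8.

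Gimap3, Gimap5, Gimap6 and Gimap7 gave differences between -0.07 and 0.11 in this comparison, with intervals from -0.23 to 0.33. An intensity difference between the lines of the size seen for Gimap9 or Gimap1 lay outside these intervals.

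**Figure D2:**
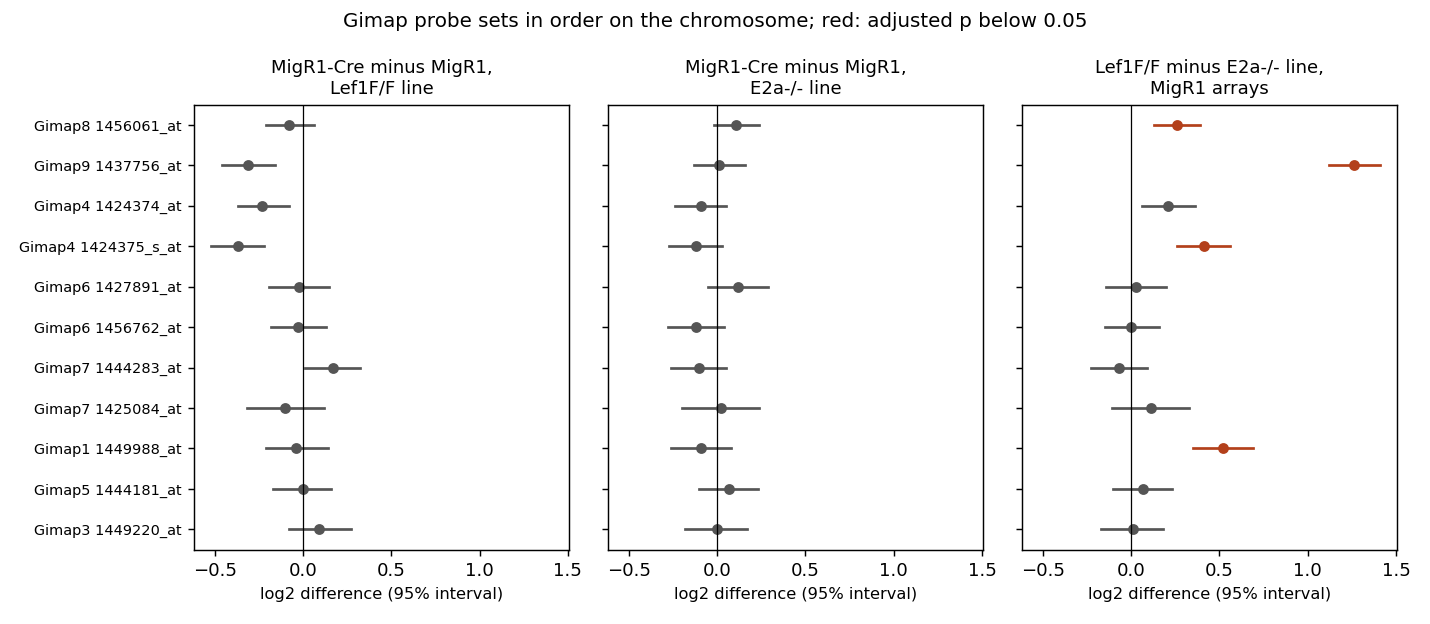
Log2 difference (horizontal axis) with its 95% interval for the 11 Gimap probe sets, for Cre in the Lef1F/F line, Cre in the E2a-/- line, and the difference between the lines (Lef1F/F minus E2a-/-) in MigR1 arrays. Red marks an adjusted p below 0.05, which occurred at 4 probe sets of the third panel (Gimap8, Gimap9, Gimap4 1424375_s_at and Gimap1) and at none of the first and second.

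Over all arrays, 4 of the Lef1F/F line against 4 of the E2a-/- line, the called probe sets were again those of Gimap9, Gimap1, Gimap4 and Gimap8. This comparison contains the MigR1 arrays of the one before and is no independent support for it. Of all probe sets 9.71% were called higher and 10.8% lower. Gimap9 was 2.15-fold higher (log2 difference 1.1 ± 0.04, adjusted p = 1.38e-06), Gimap1 was 1.46-fold higher (0.55 ± 0.05, adjusted p = 0.00019), Gimap4 1424375_s_at was 1.22-fold higher (0.28 ± 0.05, adjusted p = 0.00315) and Gimap8 was 1.12-fold higher (0.17 ± 0.04, adjusted p = 0.0199), all by limma. The arrays of the lines did not overlap for 3 probe sets, Gimap9, Gimap1 and Gimap8, and 11.5% of all probe sets had that separation upwards. The median log2 difference of the 11 probe sets was 0.06, beside -0.006 over all probe sets. The Gimap8 call was lost when any 1 of 6 arrays was left out, with adjusted p up to 0.0753.

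In the order of the Gimap genes along the chromosome, Gimap8, Gimap9 and Gimap4 came first, and Gimap1 stood alone after the uncalled Gimap6 and Gimap7. Other genes, which were not measured, lie between Gimap8 and Gimap9. Gimap4 was called only by the probe set that is not its brightest. By its brightest, the measure used for the neighbours below, Gimap4 was not called (adjusted p = 0.0607 by limma), and Gimap8 and Gimap9 remained. Gimap5 and Gimap3, which follow Gimap1, were not called. The neighbourhood was read from the 10 protein-coding genes on either side and any other gene between the Gimap genes, of which 16 of 22 were measured. Counting each gene by its brightest probe set over all arrays, 5 neighbours were lower in the Lef1F/F line, none was higher and 11 were not called. Of all 18193 genes, 12.9% were called higher and 12.1% lower in that comparison. The lower neighbours were Krba1 (log2 difference -0.71 ± 0.05), Zfp467 (-0.56 ± 0.07), Malsu1 (-0.29 ± 0.07), Rarres2 (-0.25 ± 0.06) and Tmem176a (-0.23 ± 0.04). Tmem176b, next to Gimap3, had 0.13 ± 0.04 (adjusted p = 0.0893), and Zfp775, before Gimap8, had 0.04 ± 0.06. With Cre in the Lef1F/F line none of the 16 neighbours was called, where 0.066% of genes were called higher and 0.22% lower.

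**Figure D3:**
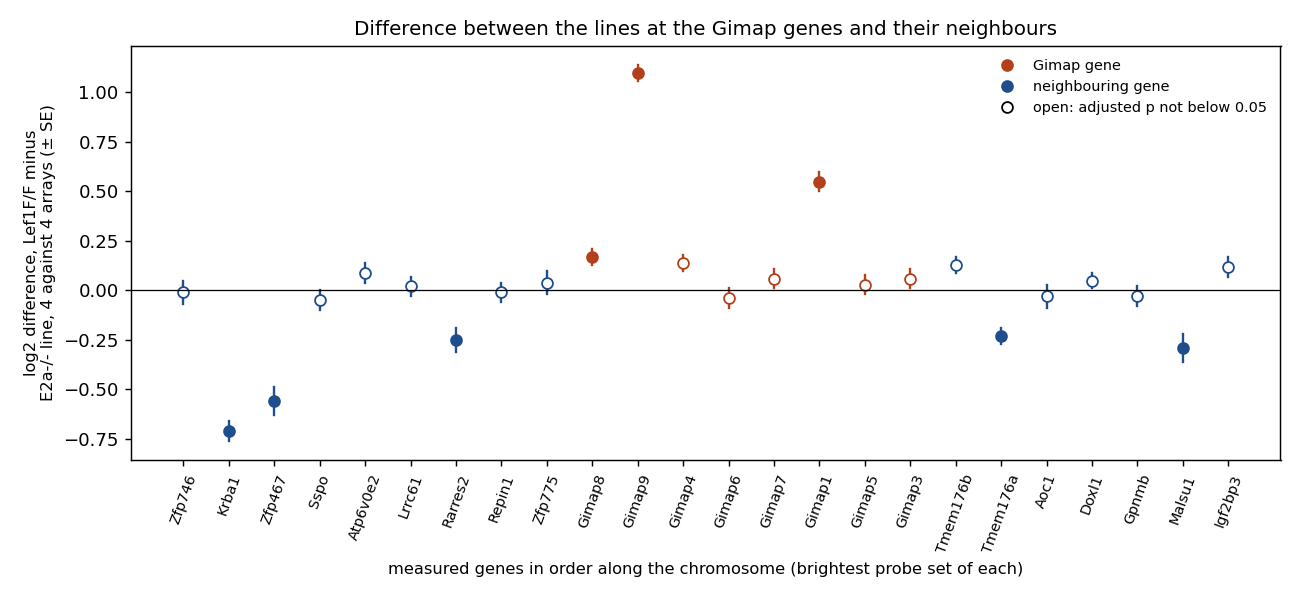
Log2 difference between the Lef1F/F and the E2a-/- line over all arrays (vertical axis, ± SE) for the Gimap genes and their measured neighbours in order along the chromosome, each by its brightest probe set. Filled points have an adjusted p below 0.05: Gimap8, Gimap9 and Gimap1 lay above 0 and 5 neighbours below 0. The brightest Gimap4 probe set is 1424374_at, which was not called.

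Gimap9 was the only member whose group means spanned at least 1 on the log2 scale, and the genes with the most similar pattern were looked up for it alone, among 523 genes with as wide a span. They were Ifi202b, an interferon-inducible gene of a multigene family (Pearson r = 0.998 over 8 arrays), Gpr25, a G protein-coupled receptor gene (r = 0.997), and Gja1, which encodes the gap junction protein connexin 43 (r = 0.996). Ifi202b had group means of 505.3 and 506.5 units in the E2a-/- line, 4290.6 units in Lef1F/F MigR1 and 2643.9 units in Lef1F/F MigR1-Cre. Gpr25 had 72.9, 69.4, 198.4 and 146.6 units in the same order, and Gja1 had 150.3, 175.8, 1414.6 and 890.9 units. All 3 shared with Gimap9 the order of the groups from low in the E2a-/- line to high in Lef1F/F MigR1. The arrays fall into 2 lines, so that a high r describes mostly that split.

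Genes of related pathways were counted in the same way, by the brightest probe set over all arrays. This comparison averages the MigR1 and MigR1-Cre arrays of each line, so a Cre difference in the floxed line enters it. Of the Bcl2 family, which sets the threshold for mitochondrial cell death, 13 of 17 genes were measured. Bcl2, Bad and Bcl2l11 were higher in the Lef1F/F line, Bid and Bcl2l1 were lower, and 8 were not called, where 12.9% of all genes were called higher and 12.1% lower. Bcl2 itself, an inhibitor of cell death, measured 51.4 and 61.1 units on average in the E2a-/- groups and 256.9 and 236.7 units in the Lef1F/F groups (log2 difference 2.14 ± 0.04, adjusted p = 2.83e-08 by limma). All 5 Bcl2 probe sets were called higher, by 0.25 to 2.14. Bad and Bcl2l11, which promote cell death, were higher by 0.27 ± 0.05 and 0.2 ± 0.05. Bid, which also promotes it, had -0.5 ± 0.07, and Bcl2l1, which encodes the inhibitor BCL-XL, had -0.17 ± 0.05. In MigR1 arrays only Bcl2 (2.32 ± 0.06) and Bid (-0.53 ± 0.1) of the 13 were called. Of all genes, 8.71% were called higher and 5.88% lower there. Bad (0.22 ± 0.07), Bcl2l11 (0.07 ± 0.07) and Bcl2l1 (-0.07 ± 0.07) were not called in MigR1 arrays. With Cre in the Lef1F/F line none of the 13 was called, where 0.066% of all genes were called higher and 0.22% lower.

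Genes of mature and migrating T cells, a stage at which Gimap transcripts are known to be abundant, were called in both directions. Of 14 measured, 5 were higher and 3 lower in the Lef1F/F line (12.9% and 12.1% of all genes). The higher ones included the class I histocompatibility genes H2-D1 (1.21 ± 0.09) and H2-K1 (1.12 ± 0.06), whose probe sets can match each other's transcripts, and the transcription factor gene Foxo1 (0.71 ± 0.08). Also higher were Cd69 (0.25 ± 0.05) and Ccr7 (0.19 ± 0.05), whose group means lay between 41.5 and 80.3 units, below the array medians. Il7r, the receptor chain for the survival cytokine IL-7, was lower (-1.71 ± 0.09), as were Ms4a6b (-1.46 ± 0.05) and Ms4a4b (-0.81 ± 0.05). Of 12 immature thymocyte genes, 3 were higher and 3 lower, beside the same shares of all genes. The recombinase gene Rag2 was higher (1.58 ± 0.08), while the coreceptor gene Cd8a (-3 ± 0.06) and the stem cell factor receptor gene Kit (-1.8 ± 0.05) were lower. Neither list had a member called with Cre in the floxed line, where 0.066% of all genes were called higher and 0.22% lower.

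Notch target genes were called higher in 5 of 11 cases and lower in 1, where 12.9% of all genes were higher and 12.1% lower. The ubiquitin ligase gene Dtx1 (2.24 ± 0.13) and the repressor gene Hes1 (1.35 ± 0.04) had the largest differences, and Tspan5 was lower (-0.36 ± 0.08). Among TCF/LEF factors, E proteins, their inhibitors and the Runx and Ikaros factors listed with them, 4 of 12 were higher and 2 lower, again beside 12.9% and 12.1% of all genes. The E protein inhibitor genes Id3 (2.48 ± 0.07) and Id1 (0.41 ± 0.04) were higher, while the inhibitor gene Id2 was lower (-0.73 ± 0.09). The E protein gene Tcf4 was lower (-2.92 ± 0.09), while the E protein gene Tcf12 was higher (0.31 ± 0.07). Runx1 was higher as well (0.4 ± 0.07). Lef1 was not called over all arrays (0.07 ± 0.07), which include those with Cre. In MigR1 arrays it was higher in the Lef1F/F line, with means of 6522 against 3312.7 units (0.97 ± 0.09, adjusted p = 0.000368 by limma). With Cre in the Lef1F/F line, where 0.22% of all genes were called lower, 3 of these 12 were lower: the targeted gene Lef1 itself, Id3 (-1.23 ± 0.1, adjusted p = 0.0049 by limma) and Id1 (-0.58 ± 0.06, adjusted p = 0.0122). Of 12 other immune GTPase genes, with the same shares of all genes beside them, 3 were higher in the Lef1F/F line, Rab44 (0.85 ± 0.07), Gbp2 (0.36 ± 0.08) and Rhoh (0.35 ± 0.04), and the interferon-induced Mx1 (-0.75 ± 0.07) and Mx2 (-0.24 ± 0.06) were lower. Rab44 alone of these was called with Cre in the floxed line (1.09 ± 0.1, adjusted p = 0.00999), where 0.066% of all genes were called higher. In MigR1 arrays Rab44 was not called between the lines (0.33 ± 0.1, adjusted p = 0.0905 by limma), so its value over all arrays includes the Cre difference.

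Markers of other cells in which Gimap genes are known to be expressed were read beside these results, against 12.9% of all genes called higher and 12.1% lower between the lines. None of 7 endothelial markers was called between the lines, and their summed intensity ran from 821 to 922 units in the E2a-/- arrays and from 797 to 890 units in the Lef1F/F arrays. Of 6 natural killer and innate lymphoid markers, Gzma was higher (0.47 ± 0.05) and Rora lower (-1.24 ± 0.07) in the Lef1F/F line, and the sum ran from 6530 to 6954 units in the E2a-/- arrays and from 7959 to 10091 units in the Lef1F/F arrays. The group means of Gzma ran from 6134 to 9365.1 units, so Gzma made up most of that sum. Ncr1, Nkg7, Klrd1 and Prf1 were not called and had group means between 44.9 and 90.3 units. Rora was also lower with Cre in the floxed line (-0.7 ± 0.09). None of 7 B cell and 8 myeloid markers was called, and the myeloid sum ran from 609 to 641 units. Of 6 stromal markers, Pdgfrb was higher (0.45 ± 0.08) and Col1a2 lower (-3.87 ± 0.06). Col1a2 had a mean of 4160.2 units in E2a-/- MigR1 and 302 units in Lef1F/F MigR1. The other stromal markers, Col1a1, Col3a1, Pdgfra and Dcn, were not called and had group means between 47.3 and 88.9 units. Of 4 erythroid markers, Klf1 and Gata1 were lower and the sum ran from 305 to 341 units over all arrays. No marker was at 0, since the table holds no intensity below 35.2 units. T lineage markers moved with the line as well, with 6 of 11 higher, among them Cd2 (0.98 ± 0.05) and Cd3g (0.58 ± 0.05), and Lat lower (-0.35 ± 0.07). The part of any of these in the Gimap differences was not tested.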

How the data were processed

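Total RNA of GFP+ sorted leukemia cells was hybridised to 8 Affymetrix mouse arrays after 3' in vitro transcription labelling. The authors background-corrected, normalised and summarised the scans by RMA in RMAExpress (version not given in the sources used here) and deposited 1 linear intensity for each probe set and array. RMA makes array distributions alike, so a change of total RNA per cell cannot be seen. Groups came from the sample titles. A further label field names the other vector for 2 of the groups (E2a-/- arrays with Cre, Lef1F/F arrays without) and was not used. Replicates were numbered in record order and do not pair arrays. Intensities were log2-transformed with no offset, 4 group means were fitted to all 8 arrays with limma 3.58.1 (lmFit, eBayes) in R 4.3.3, and two-sided p-values were adjusted over 45037 probe sets by the Benjamini-Hochberg method (threshold 0.05). Errors of log2 differences are moderated standard errors. The fit was tested on simulated data with independent noise for each array. Those data do not hold the likeness of Lef1F/F arrays across groups. All Gimap probe sets are named. List members are named where called, or as examples. For gene counts the brightest probe set stood for a gene. The members and lists were chosen with earlier results of these data known.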

Additional observations from a re-analysis of the deposited data

How the results depend on the processing

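Gimap9 and Gimap1 were called higher in the Lef1F/F line under every alternative run, with log2 differences of 1.03 to 1.31 and 0.33 to 0.57 in MigR1 arrays. The alternatives were trend and robust moderation, an offset of 50 units, a filter on dim probe sets, the compared arrays alone, a second quantile normalisation, array weights, no probe sets that match several transcripts, the mean over the probe sets of a gene, a threshold of 0.01, and leaving out each array. The number of Gimap probe sets called higher in MigR1 arrays ranged from 2 to 4 when 1 array was left out, with 2 without E2a-/- MigR1 replicate 2, and from 3 to 4 over all arrays. Gimap8 accounted for most lost calls: 3 of 8 such fits lost it in MigR1 arrays, with adjusted p up to 0.142. A block for pairs of arrays in the Lef1F/F line was an alternative chosen after seeing the data. With it, 1 Gimap probe set was called lower with Cre in the Lef1F/F line (0.571% of all probe sets were), and none without it. The block gave 5 called higher between the lines in MigR1 arrays and over all arrays, against 4. The share of all probe sets called between the lines under the block was not counted, so this is not read as a gain for the family. No direction of a called value reversed. The labels give no replicate numbers that pair arrays across groups. The filter kept 7 of the 11 Gimap probe sets. With 2 arrays per group and most Gimap probe sets near the lower end of the intensity range, differences smaller than the intervals given could not be seen, and signal over background was not given for single probe sets.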
